A study of Drosophila melanogaster with 58 samples.

Results

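Time courses of RNA levels in gamma neurons and alpha-beta neurons of the Drosophila melanogaster mushroom body were compared between 18 and 30 h after pupa formation, to find genes whose rate of change differed between the cell types. The comparison used the 48 pupal libraries of the 58 in the series, chosen by their labels: 23 from gamma neurons, which regrow their axons in this period, and 25 from alpha-beta neurons, which extend theirs initially. At 18, 21, 24, 27 and 30 h there were 5, 5, 5, 3 and 5 gamma libraries and 5, 5, 6, 4 and 5 alpha-beta libraries. The 10 adult libraries entered no main test, only a refit with all 58 libraries. Each library came from 1000 GFP-positive cells sorted from dissociated brains of flies kept at 25 °C, with both sexes taken at random. The strain and the driver that labels the cells are not given in the sources used here, so the sort cannot be described beyond its labels. The labels do not say that replicates came from separate animals or sorts. Library names also hold a letter that some replicates of a group share, such as E in 30 h gamma replicates 2, 3 and 4. What that letter stands for is not stated, and it entered no fit. The p-values therefore measure the spread between these libraries, which may be partly technical.

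The intrinsic cells of the mushroom body, Kenyon cells, are made in sequence by the same neuroblasts. Gamma neurons are born early, prune their larval axon branches at the start of metamorphosis under control of the steroid hormone ecdysone, and then regrow an adult axon. Alpha-beta neurons are born last and send out an axon that has never been pruned. The regrowth of gamma axons is known to need the nuclear receptor encoded by Hr51 and the TOR growth pathway.

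The 48 libraries held between 5340159 and 27242758 counts, with a count for 6371 to 8544 genes, so that 3 counts correspond to 0.11 to 0.562 CPM (counts per 1000000 in the library). These floors cover counting error only, because PCR copies are not independent molecules. The neuronal RNA-binding protein gene elav had at least 412 CPM in every gamma library and at least 533 CPM in every alpha-beta library, and ey, a transcription factor gene of Kenyon cells, had at least 232 CPM in gamma and 132 CPM in alpha-beta libraries. The 2 cell types stood apart in lncRNA:cherub, a noncoding RNA known from neural stem cells, which had 2.64 to 166 CPM in gamma libraries and 354.5 to 4832 CPM in alpha-beta libraries. At 18 h lncRNA:cherub had 24.6 to 166 CPM in gamma libraries and 1855 to 4832 CPM in alpha-beta libraries. Its 30 h ranges were 3.18 to 25.4 CPM in gamma and 354.5 to 1407 CPM in alpha-beta libraries. wor, a neuroblast transcription factor gene, was at 0 in all 23 gamma libraries and had a median of 33.5 CPM in alpha-beta libraries. Alpha-beta libraries had 8.3 to 101 CPM of wor at 18 h and 0 to 56.9 CPM at 30 h. The part of these changes with time in the slope differences was not tested. In 3 gamma libraries (18 h replicate 4, 21 h replicate 5 and 24 h replicate 1) the male-enriched noncoding RNAs lncRNA:roX1 and lncRNA:roX2 summed to at most 19.8 CPM, against 182 to 2978 CPM in the other 45 libraries. In 8 libraries, 5 of gamma and 3 of alpha-beta neurons, the glial transcription factor gene repo reached 10 CPM. The gamma ones were 18 h replicate 2, 24 h replicate 2 and 30 h replicates 2, 3 and 4. Those of alpha-beta neurons were 18 h replicate 3, 24 h replicate 5 and 27 h replicate 3, with none of 30 h. A fit without these 8 keeps only replicates 1 and 5 of the 30 h gamma libraries. The results named below were recomputed without each of these sets.

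A time slope is given as the log2 change from 18 to 30 h along a straight line fitted to the libraries of 1 cell type. The slope difference is the gamma slope minus the alpha-beta slope. A gene was called when the edgeR quasi-likelihood test gave a Benjamini-Hochberg adjusted p under 0.05 over all 9824 genes tested. Of these, 256 genes (2.61%) were called, 174 (1.77%) with a more positive and 82 (0.835%) with a more negative slope in gamma neurons. Most were detected in few libraries, and 237 of the 256 had a count in fewer than 24 of the 48, a group in which 9.68% of the 2448 genes tested were called. In counts simulated with the spread of these libraries, false calls exceeded the nominal share and were mostly among genes detected in few libraries. That does not show which of the 237 calls are false. At an unadjusted p under 0.05 there were 896 genes (9.12%). Among the 5567 genes whose average log2 CPM was 4 or more, called well expressed here, 13 were called (0.234%), 2 more positive (0.0359%) and 11 more negative (0.198%) in gamma neurons. Each of these 13 had a count in at least 47 libraries. They were the cyclic nucleotide channel gene Cngl, the cAMP phosphodiesterase gene dnc, the glutamate receptor gene GluRIB, the regulators Eip93F, pan, Bx and Xbp1, the surface protein gene beat-VI, Stacl, CG12071 and lncRNA:CR44832 with negative differences, and the arginine kinase gene Argk1 and CG3163 with positive ones.

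**Figure D1:**
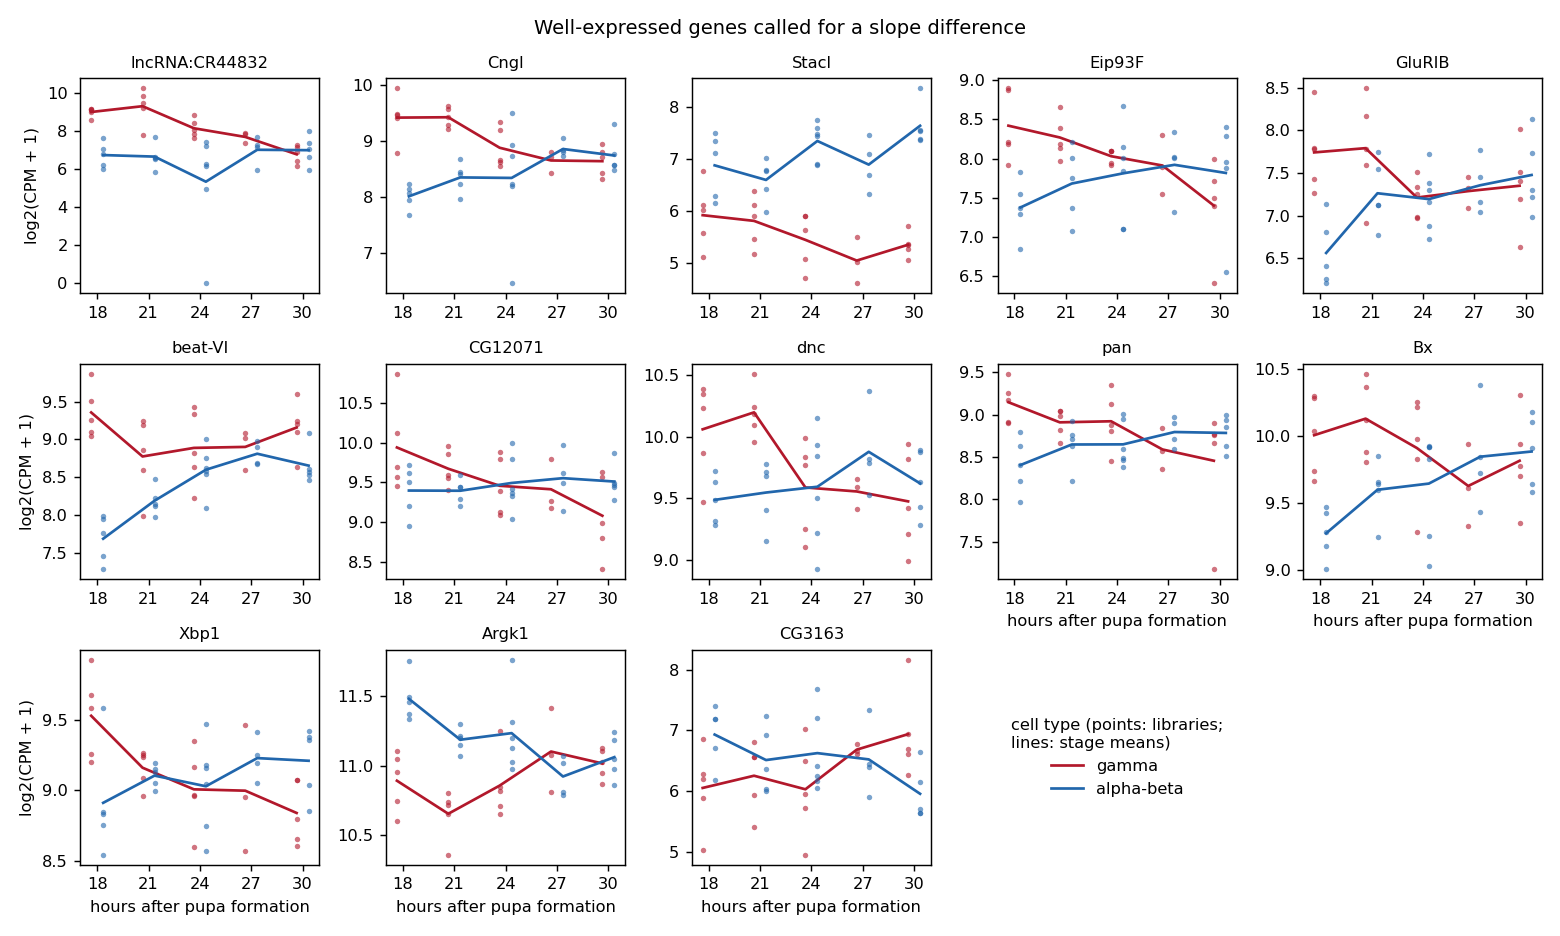
Levels of the 13 well-expressed genes called for a slope difference, as log2(CPM + 1) in each library (points) against hours after pupa formation, with lines through the stage means, for gamma neurons (red) and alpha-beta neurons (blue). For Cngl the red points lie above the blue ones at 18 h and the points mix from 24 h on; for Stacl the colours separate fully at 30 h.

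The difference with the smallest adjusted p among the 13 was that of Cngl, which encodes a protein related to cyclic nucleotide-gated ion channels. At 18 h it had 985, 443, 715, 678 and 706 CPM in gamma libraries, against 281, 298, 245, 269 and 203 CPM in alpha-beta libraries. At 21 h it had 760, 791, 624, 690.5 and 590.4 CPM in gamma libraries, against 347, 249.8, 299.5, 340.1 and 411 CPM in alpha-beta libraries. The gamma libraries lay above every alpha-beta library at both of these stages. At 24 h it had 394, 376, 588, 648 and 406 CPM in gamma libraries, against a lowest of 86.6, a median of 361 and a highest of 722 CPM in the 6 alpha-beta libraries. At 27 h it had 344, 445 and 421 CPM in gamma libraries, against 529, 448, 457 and 424 CPM in alpha-beta libraries. At 30 h it had 419.9, 342, 445, 318 and 492 CPM in gamma libraries, against 634, 357, 379, 433 and 381 CPM in alpha-beta libraries. From 24 h on the cell types overlapped, and at 30 h every alpha-beta library was above every alpha-beta library of 18 h. The gamma slope of -0.93 passed the test (adjusted p = 0.0143), as did the gamma slope of 3.89% of all genes, with a fitted 30 h level of 0.524 times that at 18 h. The alpha-beta slope of 0.80, or 1.74 times, did not pass by itself (adjusted p = 0.066), while 2.79% of all genes did. The slope difference was -1.73 ± 0.34 (SE), with a 95% interval of -2.40 to -1.05 and an adjusted p of 0.00181. It stayed called on leaving out each of the 48 libraries in turn, without the 3 libraries low in roX RNA (-1.75, adjusted p = 0.00286) and without the 8 with repo (-1.75, adjusted p = 0.00899). The call was lost without the 18 h libraries (-1.62, adjusted p = 0.123), without the 27 h libraries (-1.597, adjusted p = 0.0517), with only 18 and 30 h (-1.57, adjusted p = 0.142) and with a line through the stage means (-1.76, adjusted p = 0.0961).

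dnc and GluRIB also act in neuronal signalling. dnc encodes the cAMP phosphodiesterase first known from learning mutants, and GluRIB a subunit of ionotropic glutamate receptors. At 18 h dnc had 1334, 709, 1299, 931 and 1201 CPM in gamma libraries, against 844, 624, 635, 716 and 791 CPM in alpha-beta libraries. By 30 h there were 979, 593, 684, 508 and 900.3 CPM in gamma libraries, against 948, 622, 688, 939.8 and 791 CPM in alpha-beta libraries. The cell types overlapped at both stages. Its gamma slope of -0.72 passed the test (adjusted p = 0.0216), the alpha-beta slope of 0.25 did not (adjusted p = 0.884), and the difference was -0.96 ± 0.28 (SE) with an adjusted p of 0.0443. At 18 h GluRIB had 348, 172, 219.9, 153 and 219 CPM in gamma libraries, against 111, 139.8, 72.9, 83.7 and 75.5 CPM in alpha-beta libraries. The 30 h levels were 181, 169, 145, 97.9 and 258 CPM in gamma libraries, against 281, 148, 157, 126 and 212 CPM in alpha-beta libraries. Gamma libraries lay above all alpha-beta libraries at 18 h and the cell types overlapped at 30 h. The slopes of GluRIB were -0.52 in gamma and 0.76 in alpha-beta neurons, neither of which passed alone (adjusted p = 0.373 and 0.131), and they differed by -1.28 ± 0.37 (SE), with an adjusted p of 0.0414. The dnc call was lost on leaving out any 1 of 19 libraries and the GluRIB call any 1 of 16, with adjusted p-values up to 0.091 and 0.104.

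Eip93F, pan, Bx and Xbp1, which encode transcriptional regulators, had negative slope differences. Eip93F encodes an ecdysone-induced transcription factor that acts late in temporal programmes of development, pan the TCF transcription factor of Wnt signalling, Bx a LIM-only cofactor, and Xbp1 the transcription factor of the unfolded protein response. At 18 h Eip93F had 476, 241, 470.2, 295 and 291 CPM in gamma libraries, against 156, 226, 165, 186 and 114 CPM in alpha-beta libraries. Levels at 30 h were 254, 179, 208, 84 and 167 CPM in gamma libraries, against 247, 92.9, 338, 235 and 312 CPM in alpha-beta libraries. Its gamma libraries were above all alpha-beta libraries at 18 h and overlapped them at 30 h. The gamma slope of -0.95 passed (adjusted p = 0.0238), the alpha-beta slope of 0.51 did not (adjusted p = 0.525), and the difference was -1.46 ± 0.37 (SE) with an adjusted p of 0.0186. At 18 h pan had 483, 478, 574, 612 and 712 CPM in gamma libraries, against 396, 338, 444, 249 and 298 CPM in alpha-beta libraries. At 30 h it had 478, 405, 437, 144 and 432 CPM in gamma libraries, against 461, 508, 365, 394 and 487 CPM in alpha-beta libraries. The 30 h gamma library at 144 CPM, replicate 4, was far below the other 4, and all 5 were below every gamma library of 18 h. The slopes of pan were -0.58 in gamma and 0.34 in alpha-beta neurons, with a difference of -0.92 ± 0.27 (SE) and an adjusted p of 0.0449. At 18 h Bx had 857, 813, 1262, 1051 and 1250 CPM in gamma libraries, against 711, 687, 623, 514 and 581 CPM in alpha-beta libraries. By 30 h there were 984, 833, 876, 652 and 1271 CPM in gamma libraries, against 1159, 801, 964, 1102 and 768 CPM in alpha-beta libraries. Gamma libraries were above all alpha-beta libraries at 18 h, and the alpha-beta libraries of 30 h were above all those of 18 h. The slopes of Bx were -0.31 in gamma and 0.60 in alpha-beta neurons, with a difference of -0.91 ± 0.26 (SE) and an adjusted p of 0.0439. At 18 h Xbp1 had 611, 586, 767, 971 and 818 CPM in gamma libraries, against 460, 431, 765, 454 and 372 CPM in alpha-beta libraries. The 30 h levels were 403, 537, 536, 388 and 444 CPM in gamma libraries, against 685, 664, 655, 524 and 462 CPM in alpha-beta libraries. The gamma libraries of 30 h were all below those of 18 h, while the cell types overlapped at each of these stages. The gamma slope of Xbp1 was -0.63 (adjusted p = 0.0175) and the alpha-beta slope 0.26, with a difference of -0.89 ± 0.24 (SE) and an adjusted p of 0.0269. Eip93F stayed called without any 1 library, but in only 8 of 19 other settings of the fit. Its call was lost without the libraries with repo and with all 58 libraries. Xbp1 was called in 9 of the 19 settings, among them that without the libraries with repo. The Xbp1 call was lost without 18 h gamma replicate 4 (-0.78, adjusted p = 0.065), and those of pan and Bx each on leaving out any 1 of 20 libraries.

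The remaining genes with a negative difference were beat-VI, an immunoglobulin-family surface protein gene of the beaten path family, Stacl, which encodes an adaptor protein related to the vertebrate STAC proteins of calcium channels, CG12071 and lncRNA:CR44832. At 18 h beat-VI had 609.8, 549, 726, 930.3 and 529 CPM in gamma libraries, against 217, 155, 174, 252 and 245 CPM in alpha-beta libraries. Levels at 30 h were 603, 591, 546, 397 and 776 CPM in gamma libraries, against 390.2, 379.9, 368, 353 and 541 CPM in alpha-beta libraries. Every gamma library was above every alpha-beta library at 18 h, and every alpha-beta library of 30 h was above all those of 18 h. beat-VI was the only one of the 13 whose alpha-beta slope passed the test alone, at 1.01 (adjusted p = 0.0064), a fitted 30 h level 2.02 times that at 18 h. Its gamma slope was -0.13 (adjusted p = 0.963) and the difference -1.14 ± 0.31 (SE), with an adjusted p of 0.031. At 18 h Stacl had 64.2, 47, 68.5, 33.8 and 108 CPM in gamma libraries, against 179.5, 76.9, 70.0, 138 and 161 CPM in alpha-beta libraries. At 30 h it had 51.5, 40.5, 38, 32.5 and 39.8 CPM in gamma libraries, against 187, 184, 166, 163 and 327 CPM in alpha-beta libraries. Stacl was the only one of the 13 without overlap at 30 h, with gamma below alpha-beta libraries, as in 1.13% of the 5567 well-expressed genes. Its slopes were -0.79 in gamma and 0.73 in alpha-beta neurons, neither passing alone, and they differed by -1.52 ± 0.42 (SE), with an adjusted p of 0.0325. The call of beat-VI was lost without any of 5 libraries (18 h gamma replicates 3 and 4, 30 h gamma replicate 4, and 18 h alpha-beta replicates 2 and 3), where the difference was -1.08 to -0.98 and the adjusted p 0.0531 to 0.0804. That of Stacl was lost without any of 4 (18 h gamma replicate 5, 18 h alpha-beta replicates 2 and 3, and 30 h alpha-beta replicate 5), where the difference was -1.45 to -1.31 and the adjusted p 0.052 to 0.0925.

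At 18 h lncRNA:CR44832 had 574, 520.4, 380.1, 583 and 557 CPM in gamma libraries, against 196, 112, 73, 64.2 and 133 CPM in alpha-beta libraries. By 30 h there were 144, 153, 71.9, 84.7 and 118 CPM in gamma libraries, against 165, 62.3, 132, 97.7 and 255 CPM in alpha-beta libraries. Gamma libraries were above all alpha-beta libraries at 18 h, and all 5 gamma libraries of 30 h were below those of 18 h. Its gamma slope of -2.61 passed the test (adjusted p = 0.00511), a fitted 30 h level 0.163 times that at 18 h, and the alpha-beta slope was 0.36 (adjusted p = 1). The difference was -2.98 ± 0.76 (SE), with a 95% interval of -4.46 to -1.50 and an adjusted p of 0.0181, and the gene was at 0 in 24 h alpha-beta replicate 6. It stayed called without any 1 library, but in only 9 of 19 other settings of the fit. Without the libraries with repo and with all 58 libraries the call was lost. At 18 h CG12071 had 1865, 759, 701, 824 and 1116 CPM in gamma libraries, against 784, 843, 586, 723 and 495 CPM in alpha-beta libraries. The 30 h levels were 793, 509, 444, 338 and 759 CPM in gamma libraries, against 935, 697, 718, 622 and 707 CPM in alpha-beta libraries. The cell types overlapped at both stages. The gamma slope of CG12071 was -0.83 (adjusted p = 0.00957) and the alpha-beta slope 0.15, with a difference of -0.97 ± 0.29 (SE) and an adjusted p of 0.0494, which was lost on leaving out any 1 of 32 libraries.

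The positive differences were those of Argk1, whose product regenerates ATP from phosphoarginine, and CG3163. At 18 h Argk1 had 1552, 2200, 1715, 1985 and 2117 CPM in gamma libraries, against 2809, 2646, 3455, 2879 and 2578 CPM in alpha-beta libraries. Levels at 30 h were 1967, 2206, 1871, 2236 and 2088 CPM in gamma libraries, against 2326, 2008, 2426, 2111 and 1855 CPM in alpha-beta libraries. Every gamma library was below every alpha-beta library at 18 h, and the alpha-beta libraries of 30 h were all below those of 18 h and overlapped the gamma ones. The slopes of Argk1 were 0.25 in gamma and -0.43 in alpha-beta neurons, neither passing alone (adjusted p = 0.514 and 0.0794), with a difference of 0.67 ± 0.19 (SE) and an adjusted p of 0.0425. At 18 h CG3163 had 77, 115, 58.4, 31.4 and 72.2 CPM in gamma libraries, against 144, 168, 104.1, 71.4 and 144 CPM in alpha-beta libraries. At 30 h it had 122, 97.2, 76.2, 102 and 285 CPM in gamma libraries, against 99.4, 69.7, 51.4, 48.8 and 48.5 CPM in alpha-beta libraries. The cell types overlapped at both stages, and 1 gamma library of 30 h, replicate 5, was far above the rest. The slopes of CG3163 were 0.91 in gamma and -0.79 in alpha-beta neurons, with a difference of 1.70 ± 0.50 (SE) and an adjusted p of 0.0475. The Argk1 call was lost on leaving out any 1 of 25 libraries and the CG3163 call any 1 of 31. Both were also lost with runs of 12 of the numbers that end the library names as a block (0.66 and 1.64, adjusted p = 0.0504 each), where all 14 well-expressed calls were negative.

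In all 11 with a negative difference the fitted slope was negative in gamma and positive in alpha-beta neurons, a combination found in 1123 of the 5567 genes of that level (20.2%). In both genes with a positive difference the signs were the other way round, as in 1042 of the 5567 (18.7%). The fitted gap between gamma and alpha-beta levels was smaller at 30 h than at 18 h in 12 of the 13, such as 1.38 at 18 h and -0.34 at 30 h for Cngl on the log2 scale. Stacl was the exception, with a gap of -0.82 at 18 h and -2.34 at 30 h. The share of all 5567 genes with a smaller gap at 30 h was not computed. At 18 h the gamma libraries lay above all alpha-beta libraries for 7 of the 13 (pan, Bx, beat-VI, GluRIB, Eip93F, Cngl and lncRNA:CR44832), against 1.54% of the 5567, and below all of them for Argk1, against 1.51%. The genes were chosen for a large slope difference, which itself favours slopes of opposite sign and unequal gaps at the ends of the series, so these shares are a description and no test.

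**Figure D2:**
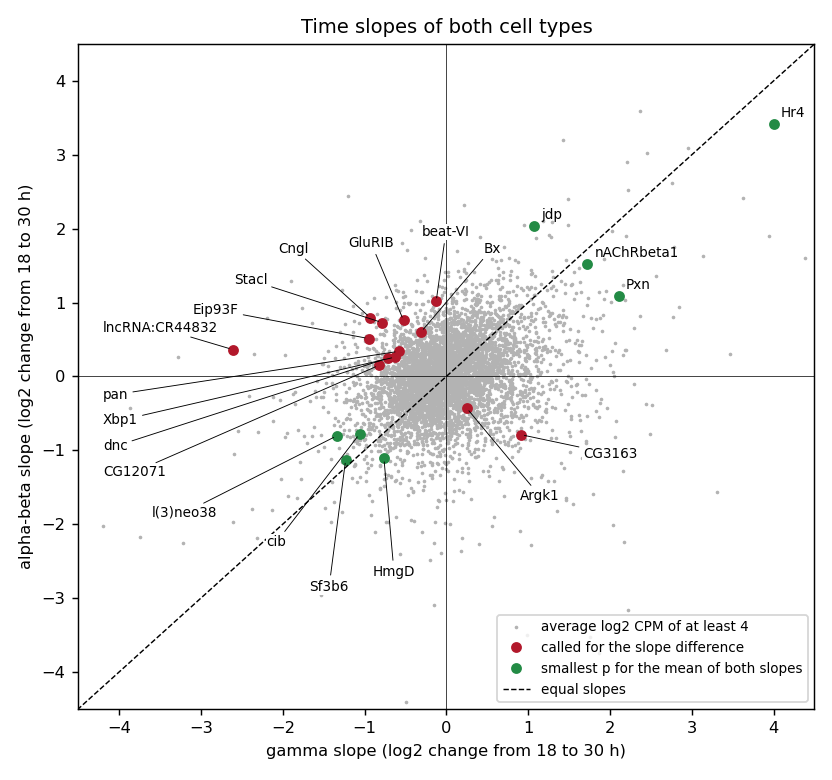
Alpha-beta slope against gamma slope, both as log2 change from 18 to 30 h, for well-expressed genes (grey; 10 of 5567 lie outside the axes), with the 13 called genes in red, the 8 genes named for the mean of both slopes in green and the line of equal slopes dashed. The red points lie at the upper left and lower right, where the slopes have opposite signs, and each green point has slopes of the same sign in both cell types.

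Support for the 13 calls depended on the genes tested beside them, because the many calls among sparsely detected genes raise the p-value that the adjustment accepts. Just past the threshold were Msp300 and Syn (adjusted p = 0.0597 each), and just inside it was CG12071 (adjusted p = 0.0494). With only the 6862 genes that had at least 1 CPM in 24 libraries, Cngl was the 1 gene called (adjusted p = 0.0383), and the other 12 had adjusted p-values of 0.409 to 0.651. DESeq2 called 12 of the 13, and limma-voom 4 (Cngl, Xbp1, Argk1 and pan). None of the 13 differences changed sign in any of the 48 fits without 1 library or in 19 other settings. The library names end in a number, and runs of 12 of these numbers each hold about 1 library per group, although the labels do not say what the numbers stand for. Within each of the 5 runs the difference had the same sign for 12 of the 13 genes, from -2.47 to -1.13 for Cngl, and Eip93F had it in 4 of 5 runs (-2.998 to 0.73). The 13 genes were chosen from these same libraries, which favours an unchanged sign in the refits and runs. These signs are therefore a description and no test.

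**Figure D3:**
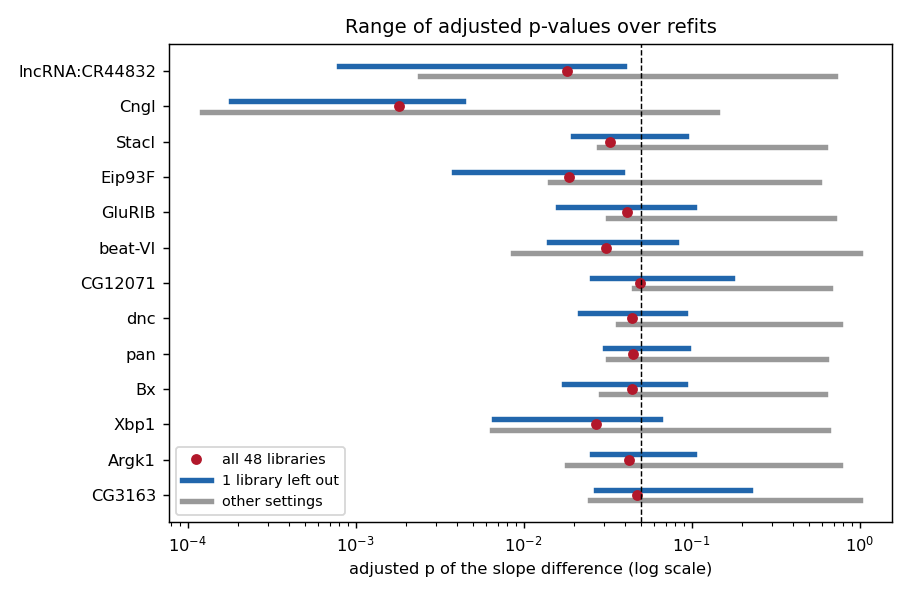
Adjusted p of the slope difference for each of the 13 genes on a log scale, with all 48 libraries (red point), its range over 48 fits that leave out 1 library (blue bar) and its range over 19 other settings (grey bar); the dashed line marks 0.05. The blue bar stays left of the line for lncRNA:CR44832, Cngl and Eip93F, and every grey bar crosses it.

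Gene lists of neuronal maturation lay on the negative side, with few members called. Counting only well-expressed genes here and in the other lists, the median slope difference of all 5567 was -0.02, 51.3% of them were negative, and 220 (3.95%) had an unadjusted p under 0.05, of which 168 (3.02%) were negative and 52 (0.934%) positive. Of 34 synaptic vesicle and active zone genes, 31 had a negative difference, the median was -0.54, and 8 against 0 had an unadjusted p under 0.05, but none was called. The alpha-beta slope was positive in 33 of the 34, with a median of 0.50, and the gamma median was 0.01. Syn, the synapsin gene, had 61.4, 60.6, 132, 123 and 109.7 CPM in gamma libraries, against 29.2, 74.8, 44.1, 43.4 and 34.6 CPM in alpha-beta libraries at 18 h. By 30 h there were 72.5, 61.4, 112, 70.4 and 42.8 CPM in gamma libraries, against 88.8, 85.1, 102, 159 and 179.8 CPM in alpha-beta libraries. The alpha-beta libraries of 30 h were all above those of 18 h, and the cell types overlapped at both stages. Its alpha-beta slope of 1.60 passed the test (adjusted p = 0.0129), the gamma slope was -0.26, and the difference of -1.87 ± 0.56 (SE) did not pass (adjusted p = 0.0597). The complexin gene cpx, whose product regulates vesicle fusion, had a difference of -0.89 ± 0.29 (SE) (adjusted p = 0.0984).

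Of 47 ion channel and transmitter receptor genes, 38 had a negative difference, with a median of -0.42, a median gamma slope of 0.21 and a median alpha-beta slope of 0.65. GluRIB was called, and 6 against 0 had an unadjusted p under 0.05. The GABA receptor gene Rdl had 567, 343, 280.1, 567 and 554 CPM in gamma libraries, against 427, 418, 324, 375 and 510.5 CPM in alpha-beta libraries at 18 h. The 30 h levels were 942, 739.6, 615, 437 and 1384 CPM in gamma libraries, against 1745, 841, 985, 687 and 2281 CPM in alpha-beta libraries. Its alpha-beta slope of 1.60 passed (adjusted p = 0.000102), the gamma slope of 0.56 did not (adjusted p = 0.263), and the difference of -1.04 ± 0.34 (SE) missed the threshold (adjusted p = 0.104). By each slope's own test 1 of the 47 rose in the gamma and 7 in the alpha-beta libraries (among all well-expressed genes 1.38% and 1.65% were called in either direction), which does not test the difference. The dpr, DIP, beat and side genes, which encode immunoglobulin surface proteins that pair across cells, had a median of -0.36 over 38 genes, with 29 negative, 5 against 0 at an unadjusted p under 0.05 and beat-VI called. dpr6 fell in gamma neurons (-1.22, adjusted p = 0.00767) and had a slope of 0.06 in alpha-beta neurons, with a difference of -1.28 ± 0.41 (SE) that did not pass (adjusted p = 0.0854). Axon guidance and adhesion genes had a median of -0.27 over 44 genes, with 31 negative, 8 negative and 1 positive at an unadjusted p under 0.05 and none called. Among these the semaphorin gene Sema1a had -0.94 ± 0.33 (SE) (adjusted p = 0.152) and the cell adhesion gene Fas2 -1.05 ± 0.37 (SE) (adjusted p = 0.156).

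Ecdysone receptors and response genes had a median of -0.27 over 16 genes, 11 of them negative, and temporal identity factors -0.31 over 9 genes, 5 of them negative. Eip93F, a member of both lists, was their only call. tai, a coactivator of the ecdysone receptor, had -0.98 ± 0.38 (SE) (adjusted p = 0.234), and Imp, an RNA-binding protein of early-born Kenyon cells, -0.91 ± 0.37 (SE) (adjusted p = 0.277). Of the TOR and insulin growth pathway none of 19 genes was called, the median was -0.08, and 1 gene was negative at an unadjusted p under 0.05. That was Hr51, the nuclear receptor of gamma regrowth, which was added to this list and is also in the ecdysone list. Its difference was -0.92 ± 0.37 (SE) (95% interval -1.65 to -0.20, adjusted p = 0.276). The TOR activator gene Rheb had 0.65 ± 0.36 (SE) (95% interval -0.06 to 1.35, adjusted p = 0.684). Actin and microtubule regulators had none called of 36, a median of -0.05 and none at an unadjusted p under 0.05; stai, a stathmin gene, had -0.44 ± 0.26 (SE) and the cofilin kinase gene LIMK1 0.95 ± 0.57 (SE).

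Ribosomal and proteasome lists lay on the positive side. Of 81 cytoplasmic ribosomal protein genes, 4 had a negative difference and the median was 0.28, from median slopes of -0.19 in gamma and -0.49 in alpha-beta neurons, with none called. RpL37A had 0.71 ± 0.34 (SE) and RpLP2 0.74 ± 0.38 (SE) (adjusted p = 0.505 and 0.572). Proteasome subunits had a median of 0.23 over 31 genes, 6 of them negative, with none called; the difference was 0.89 ± 0.43 (SE) for Prosbeta3 and -0.69 ± 0.35 (SE) for Rpn8. Neuroblast and newborn neuron genes had a median of 0.70 over 11 genes, 5 of them negative, with none called at this level, a median slope of -0.57 in gamma and of -1.81 in alpha-beta neurons. The Notch target gene E(spl)mbeta-HLH had 2.53 ± 1.48 (SE) and the Notch receptor gene N 1.81 ± 1.09 (SE) (adjusted p = 0.741 and 0.781). The lists of oxidative phosphorylation subunits (median -0.06, 60 genes), heat shock and chaperone genes (-0.12, 21 genes) and cell cycle genes (-0.24, 11 genes) had no member called at this level. In these, ND-13B had -0.63 ± 0.43 (SE), SdhC -0.54 ± 0.49 (SE), Hsc70-3 -0.64 ± 0.30 (SE), Droj2 0.46 ± 0.26 (SE), Cdk2 1.01 ± 0.68 (SE) and geminin -0.80 ± 0.70 (SE).

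**Figure D4:**
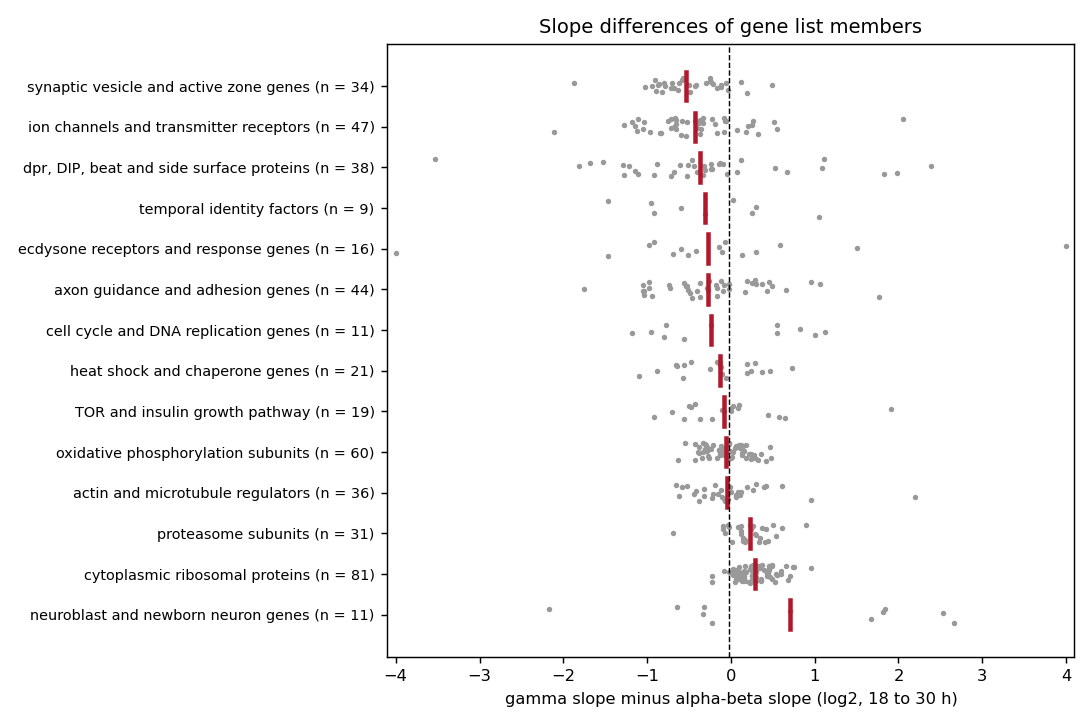
Slope difference (gamma minus alpha-beta, log2 change from 18 to 30 h) of each well-expressed gene (grey points; values beyond 4 are drawn at the edge) in 14 gene lists, with the median of each list (red) and of all 5567 genes (dashed). The synaptic, channel and surface protein lists have medians of -0.54 to -0.36, and the ribosomal and proteasome lists 0.28 and 0.23.

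Markers of the sorted cells and of other cells moved beside these lists. Kenyon cell markers had a median slope difference of -0.66 over 16 genes, 14 of them negative and dnc called, and the 7 general neuron markers had -0.66, all negative. Several of these markers also belong to the lists above, so the shifts are partly those of the same genes. Among them are nSyb, Syt1, brp and prt of the synaptic list, para, Dop1R1, Dop2R and Oamb of the channel and receptor list, and Fas2. The summed neuron markers ranged from 4899 to 9092 CPM in gamma and 4465 to 8659 CPM in alpha-beta libraries at 18 h. At 30 h they ranged from 4993 to 8787 CPM in gamma and 6349 to 10480 CPM in alpha-beta libraries, so the groups overlapped. The 17 glial markers summed to 420 to 973 CPM in gamma and 492 to 962 CPM in alpha-beta libraries at 18 h, and to 871 to 1744 CPM in gamma and 626 to 970.4 CPM in alpha-beta libraries at 30 h. The largest of these was nrv2, with 30 h medians of 504 CPM in gamma and 577 CPM in alpha-beta libraries, higher in alpha-beta. Tsf1 had 30 h medians of 329 CPM in gamma and 82.8 CPM in alpha-beta libraries. For repo the 30 h medians were 12.3 CPM in gamma and 0 CPM in alpha-beta libraries, and for Gs2 113 and 37.5 CPM. Gat, gcm and Indy were at a 30 h median of 0 in both. The 7 blood cell markers in the table, of 11 asked for, summed to 88.9 to 201 CPM in gamma and 99.3 to 154 CPM in alpha-beta libraries at 18 h, and to 441 to 595 CPM in gamma and 135 to 290.4 CPM in alpha-beta libraries at 30 h. Pxn held most of this sum (medians of 440 CPM in gamma and 139 CPM in alpha-beta libraries), while the defining markers Hml and He had medians of 0 and at most 0.0594 CPM. Fat body, muscle and photoreceptor markers had 1 well-expressed gene each, and at 30 h summed to 26.4 to 47.7, 129 to 517 and 44.1 to 108 CPM in gamma libraries, against 57.95 to 94.3, 79.8 to 347 and 69.7 to 216 CPM in alpha-beta libraries. The part of these markers in the slope differences was not tested, beyond the fit without the 8 libraries with repo, which called 5 well-expressed genes, 3 of them among the 13. In sorted pools, fewer cells of a type and less RNA per cell cannot be told apart.

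The mean of both slopes was tested too, which asks for a change over both cell types together and not for equal slopes. It was called in 4.63% of all genes and in 185 of the 5567 well-expressed ones (3.32%), and its SE is smaller than that of the difference (0.17 against 0.34 for Cngl), so these shares are not of equal power. The nuclear receptor gene Hr4, an ecdysone response gene, had 52, 52.6, 33.6, 52 and 15.9 CPM in gamma libraries, against 49.6, 122, 46.9, 70.6 and 110.4 CPM in alpha-beta libraries at 18 h. Levels at 30 h were 1068, 773, 803, 543 and 1860 CPM in gamma libraries, against 1224, 735, 774, 169 and 1137 CPM in alpha-beta libraries. In both cell types every library of 30 h was above every library of 18 h. Its slopes were 4.00 in gamma and 3.42 in alpha-beta neurons, a mean of 3.71 (adjusted p = 2.07e-15) or 13.1 times, and the slope difference was 0.58 ± 0.52 (SE) with a 95% interval of -0.44 to 1.61. nAChRbeta1, an acetylcholine receptor subunit gene, rose by a mean of 1.62 (adjusted p = 9.2e-08), jdp, which encodes a J-domain protein, by 1.55 and the peroxidase gene Pxn by 1.60. The difference was 0.20 ± 0.38 (SE) for nAChRbeta1 and -0.97 ± 0.47 (SE) for jdp (adjusted p = 0.523, unadjusted p = 0.0453), from jdp slopes of 1.07 in gamma and 2.03 in alpha-beta neurons. For Pxn the difference was 1.03 ± 0.39 (SE) (adjusted p = 0.229), and its 30 h levels did not overlap, at 440.3, 424, 436, 461 and 442 CPM in gamma libraries, against 124, 139, 243, 103.8 and 156 CPM in alpha-beta libraries. The actin-binding protein gene cib, the splicing factor gene Sf3b6, the zinc finger gene l(3)neo38 and the HMG-box gene HmgD fell in both cell types, with mean slopes of -0.92, -1.18, -1.07 and -0.94, and differences between cell types of -0.28 ± 0.24 (SE), -0.10 ± 0.31 (SE), -0.54 ± 0.30 (SE) and 0.34 ± 0.28 (SE).

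The other 243 calls concerned the 4257 genes of lower level (5.71%), and 237 of them had a count in fewer than 24 libraries. The share of genes called was 18.1% (84 of 464) among genes with a count in at most 5 libraries, 11.8% in 6 to 11, 4.38% in 12 to 23, 0.602% in 24 to 36, 0% in 37 to 46 and 0.276% in 47 or 48. In 66 of the 237 genes 1 library held at least 50% of the summed CPM. The 169 with a more positive gamma slope had a count in 8.28, 5.09, 8.88, 28.2 and 27 percent of gamma libraries at 18, 21, 24, 27 and 30 h, on average. In alpha-beta libraries the shares were 36, 29, 14.6, 11.7 and 12 percent. For the 68 with a more negative gamma slope the shares were 24.7, 11.2, 7.35, 8.82 and 4.12 percent in gamma and 11.5, 12.9, 13.2, 21 and 27.9 percent in alpha-beta libraries. Of the gene lists, these calls held Ork1, a potassium channel gene, and dpn, a neuroblast transcription factor gene, with positive differences and counts in 6 and 14 libraries, and the heat shock cognate gene Hsc70-1 with a negative one and counts in 5. The muscle markers TpnC73F (positive) and Mlc1 (negative) had counts in 5 and 6 libraries. The test chose these genes, so their directions are a description. Their fitted slope differences reached 4.2 to 24.2 in size, which depends on how zeros are treated and gives no fold.

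**Figure D5:**
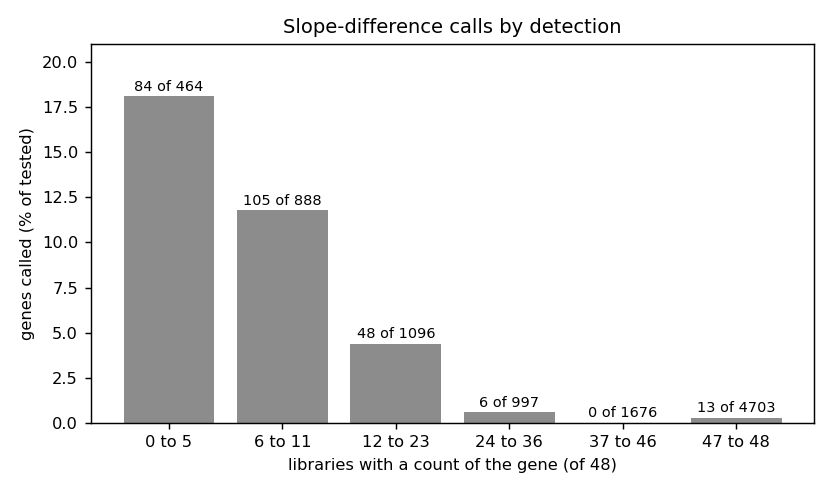
Percent of tested genes called for the slope difference, by the number of the 48 libraries in which the gene had a count; the labels give called and tested genes. The share is 18.1% among genes with a count in at most 5 libraries and 0.276% among those with a count in 47 or 48.

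The 6 called genes left had a count in 24 to 46 libraries and are named after their values were seen. Dr, a homeobox gene, had 0, 0, 0, 0 and 0 CPM in gamma libraries, against 0.154, 2.94, 4.12, 52.6 and 2.3 CPM in alpha-beta libraries at 18 h. Its only gamma library with a count was 27 h replicate 3, at 12.1 CPM, and without that library the difference was 0.52 in place of 10.71; the call was also lost without 18 h alpha-beta replicate 4 (9.78, adjusted p = 0.0601). whip had a count in 1 gamma library, 18 h replicate 1 at 6.6 CPM, and its difference of -8.83 was 0.90 without that library. esg, a Snail-family transcription factor gene of stem cells, had 0, 0, 0, 0 and 0 CPM in gamma libraries, against 13.8, 12.9, 44.7, 18.6 and 0.574 CPM in alpha-beta libraries at 18 h. At 30 h it had 5.36, 1.94, 14.5, 33.4 and 0 CPM in gamma libraries, against 0.16, 0, 13.3, 12.8 and 0 CPM in alpha-beta libraries. It was at 0 in all gamma libraries of 18 and 21 h, and its call held without any 1 library. Dh44-R1, a neuropeptide receptor gene, had 0, 18, 0.841, 42.5 and 0 CPM in gamma libraries, against 0, 0, 12.7, 41 and 14.2 CPM in alpha-beta libraries at 18 h. By 30 h there were 0, 0, 0, 0 and 0 CPM in gamma libraries, against 7.26, 5.2, 14.1, 26 and 2.23 CPM in alpha-beta libraries. Its gamma libraries were at 0 at 24, 27 and 30 h, and its call also held without any 1 library. zormin, which encodes a muscle Z-disc protein, had 11.1, 0.37, 17.9, 0.357 and 21.9 CPM in gamma libraries, against 0, 0.0753, 0, 0 and 0 CPM in alpha-beta libraries at 30 h, and its call was lost without 18 h alpha-beta replicate 3 (adjusted p = 0.0557). Obp73a, an odorant-binding protein gene, had 0, 0, 0, 0 and 0 CPM in gamma libraries, against 1.28, 0.904, 1.16, 1.48 and 0.526 CPM in alpha-beta libraries at 30 h, and its call was lost without 18 h gamma replicate 1 or 3 (adjusted p = 0.125 and 0.103).

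A test that allows any shape of time course, with the 5 stages as groups, called no gene (0 of 9824), while 1106 genes (11.3%) had an unadjusted p under 0.05. DESeq2 called 1 gene and limma-voom 52 in the same comparison. Cngl was the gene called by edgeR with the replicate number as a block, and also without 24 h alpha-beta replicate 6.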

How the data were processed

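The authors deposited 1 table of raw counts per gene symbol and library, per the file headers; only these deposited counts were used. STAR is named in the submitters' processing notes, without a role or version. The counting program, annotation and genome build are not given in the sources used here, so no coordinates are printed. Of 12453 symbols, 12239 (98.3%) were found in the reference gene names. No count column lacked a sample (0 columns). The chi-square per degree of freedom was 89.5 to 741 between the 94 pairs of libraries of the same group, so none looked like a repeat of another.

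edgeR 4.0.16 in R 4.3.3 fitted cell type, hours (centred at 24 h, per 12 h) and their product by quasi-likelihood to the 48 pupal libraries. TMM scaling and filterByExpr over the 10 groups (minimum count 10, minimum total 15) left 9824 genes. Tests were two-sided F-tests with Benjamini-Hochberg adjustment over these genes. CPM values are TMM-scaled, except in the description of the libraries, where they are by library total. The plots add a pseudocount of 1. Alternatives used DESeq2 1.42.0 and limma 3.58.1. In counts simulated with the spread of these libraries, false calls exceeded the nominal share and were mostly among genes detected in few libraries.

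Named genes are the called ones whose average log2 CPM is 4 or more, the 2 members of smallest p in each list, and the 4 rising and 4 falling genes of smallest p for the mean slope; others are said to be named after their values were seen. The comparison, the gene lists and the naming rule were chosen with earlier results of these data known.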

Additional observations from a re-analysis of the deposited data

Results flagged for a closer look

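The test of the slope difference passed for 19 named genes, given here as the gamma slope minus the alpha-beta slope on the log2 scale. It was -1.73 for Cngl, -2.98 for lncRNA:CR44832, -1.52 for Stacl, -1.46 for Eip93F, -1.28 for GluRIB, -1.14 for beat-VI, -0.975 for CG12071, -0.963 for dnc, -0.923 for pan, -0.912 for Bx, -0.888 for Xbp1, 0.674 for Argk1 and 1.70 for CG3163. Among the less detected genes it was 10.7 for Dr, 11.3 for esg, 10.4 for zormin, -12.4 for Dh44-R1, -8.83 for whip and -4.11 for Obp73a. These last 6 come from genes at 0 in many libraries and are not folds.

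Single libraries stood apart from the rest of their group in 23 of the 157 groups of 4 to 6 libraries examined for these genes. The critical values used are set so that chance gives about 1 in 20, a rate that was not checked for genes at 0 in most libraries. Among the well-expressed genes these were CG3163 at 285 CPM in 30 h gamma replicate 5, Argk1 at 2430 CPM in 24 h gamma replicate 5 and 3470 CPM in 24 h alpha-beta replicate 6, pan at 144 CPM in 30 h gamma replicate 4, Xbp1 at 765 CPM in 18 h alpha-beta replicate 3, beat-VI and Stacl at 541 and 327 CPM in 30 h alpha-beta replicate 5, Cngl at 634 CPM in 30 h alpha-beta replicate 1 and lncRNA:CR44832 at 210 CPM in 21 h alpha-beta replicate 4. All were high except pan, which was low.

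Among the less detected genes the library that stood apart was always the highest. In gamma libraries these were Dh44-R1 at 17.3 CPM and zormin at 1.91 CPM in 21 h replicate 2, zormin at 3.11 CPM in 24 h replicate 3, esg at 4.47 CPM in 24 h replicate 2 and whip at 6.60 CPM in 18 h replicate 1. In alpha-beta libraries they were Dr at 52.6 CPM in 18 h replicate 4 and 35.5 CPM in 27 h replicate 5, Dh44-R1 at 61.3 CPM in 24 h replicate 5 and 33.8 CPM in 27 h replicate 5, zormin at 17.4 CPM in 18 h replicate 3 and 0.0753 CPM in 30 h replicate 2, and whip at 60.9 CPM in 21 h replicate 2, 44.5 CPM in 24 h replicate 6 and 80.1 CPM in 30 h replicate 5.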

How the results depend on the processing

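The count of 256 calls, 13 of them well expressed, moved by over 1.5 times under many settings; the cause was not tested, except that fewer genes or libraries were tested where the setting says so. All calls numbered 448 with no filter on low counts, 1 (the well-expressed Cngl) with at least 1 CPM in 24 libraries, 5 with a count in at least 24 libraries (1 well expressed), 30 with limma-voom (6 well expressed), 129 with the library-name runs as a block (14 well expressed, 10 of them among the 13; Argk1, CG3163 and Bx were lost), and 0 with stage means (679 genes at an unadjusted p under 0.05) or with only 18 and 30 h (481 genes), where 0 were well expressed; no second tool was run on those 2. They numbered 56, 69, 14 and 120 without 18, 21, 27 and 30 h, of which 1, 2, 0 and 3 were well expressed. Well-expressed calls numbered 2 with all 58 libraries, 6 without the 3 libraries low in roX RNA and 5 without the libraries with repo. With all 58 these were Cngl and Stacl. Without the roX-low libraries they were Cngl, Stacl, Eip93F, GluRIB, CG12071 and lncRNA:CR44832. Of the 13 genes, only Cngl, Xbp1 and CG3163 stayed called without the libraries with repo. The stage test gave 0 calls, against 1 with DESeq2, 52 with limma-voom and 1 with the replicate block. The filter by counts in 24 libraries and the settings without roX-low or repo libraries were chosen after seeing the data.

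Without 1 library, calls numbered 211 to 325, well-expressed calls 5 to 21 and stage calls 0 to 1. Well-expressed calls numbered 5 to 8 without gamma 18 h replicates 1, 3 or 5, 21 h replicate 5 or 30 h replicates 2 or 4, or alpha-beta 18 h replicates 1, 2, 3 or 5, 27 h replicates 1 or 4 or 30 h replicate 1. They numbered 20 to 21 without gamma 18 h replicate 2, gamma 30 h replicate 1 or alpha-beta 24 h replicate 6. Of the 256 genes 37 were called in all 48 such fits, 3 of them well expressed.

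The replicate numbers share no stated source, and deviations of same-numbered libraries correlated at a mean of 0.0615 (198 pairs, -0.237 to 0.254), against -0.014 for different numbers, so they do not meet the bar for pairing (every pair over 0.1). That bar is strict, and missing it does not show that the libraries are independent. For libraries of the same library-name run the mean was 0.0867 (206 pairs, 84 over 0.1), against -0.021 between runs (828 pairs, 93 over 0.1). The main fit used no block for these runs. A replicate block gave 91 calls, 10 of them well expressed and 7 of these among the 13.

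The sign reversed for lncRNA:roX2 (2.05 with limma-voom, 0.18 without 18 h), lncRNA:roX1 (2.29 and 1.24) and whip (2.73 and 0.0095, and 0.90 without gamma 18 h replicate 1, in a range of -9.82 to 0.90 without 1 library; it was -11.76 without the libraries with repo). List medians kept their sign in 19 settings for the synaptic (-0.81 to -0.41), channel, surface protein, guidance, ecdysone, temporal, ribosomal (0.03 to 0.50), proteasome and neuroblast lists; the other 5 lists changed sign in 1 to 3. For genes with a count in fewer than 24 libraries, 3 counts correspond to at most 0.562 CPM. That floor covers counting error only, so a count of 0 does not bound the level in the cells. The part of depth in these zeros was not tested.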

Other observations

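The adult libraries entered the slope fit only in the setting with all 58 libraries. They give levels for the same genes after pupal growth (CPM scaled over all 58 libraries, mean ± SD, n = 5 in each group). Cngl had 2771 ± 2541 CPM in adult gamma neurons, with libraries from 838.5 to 7187 CPM, and 937.5 ± 277 CPM in adult alpha-beta neurons. Stacl had 503 ± 270.2 CPM in adult gamma neurons and 968 ± 270.1 CPM in adult alpha-beta neurons. Eip93F had 258.5 ± 250.1 CPM in adult gamma neurons and 768 ± 198 CPM in adult alpha-beta neurons. beat-VI had 229.5 ± 79.4 CPM in adult gamma neurons and 409.7 ± 159 CPM in adult alpha-beta neurons. dnc had 1628 ± 823.5 CPM in adult gamma neurons and 1289 ± 183 CPM in adult alpha-beta neurons. The spread among adult gamma libraries was wide for Cngl, and no difference between these adult groups was tested here.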
